A study of Homo sapiens with 7 samples.

Results

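miR-101 is described here through its mature arms, hsa-miR-101-3p and hsa-miR-101-5p, which are 2 of the 2652 miRNA entries counted in each library and were taken by name. They were selected on the measured counts, because miR-101-3p was sharply lower in late libraries. The levels over the libraries are therefore a description. A test of miR-101-3p is given only for 24 h against untreated cells, a difference the choice did not rest on. Untreated cells and 24 h both served as the high level in that choice, so this test is not fully independent of it. HepG2, an established human hepatocellular carcinoma line, was left untreated (0 h, wild type by its label, 1 library) or treated with siRNA 1 or siRNA 2 against TEAD1, through which the Hippo pathway controls transcription, for 24, 36 or 48 h (labelled TEAD1 knockdown, 1 library for each siRNA and time). All 7 libraries thus come from the same cell line. No library of cells given a control siRNA was analysed here, so loss of TEAD1 cannot be told apart from transfection or from time in culture, and the labels do not say whether the libraries came from separate cultures. TEAD1 and EZH2 are mRNAs and were not measured in these small RNA libraries.

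MicroRNAs are cut from hairpin precursors, and the arm that is loaded into an Argonaute protein pairs through its seed, bases 2 to 8, with sites in the 3′ untranslated regions of mRNAs, which lowers their translation and stability. miR-101-3p is known for repressing EZH2, the histone methyltransferase of Polycomb repressive complex 2, and it is often reduced in liver cancer. The human genome has a pair of miR-101 hairpins, and both give the same miR-101-3p.

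The mature sequences of the family show what each count can tell. They are given 5′ to 3′ as in the deposited files, with the seed in capitals, and each matched its RefSeq entry (GRCh38.p14). miR-144-3p is the erythroid relative of miR-101-3p.
hsa-miR-101-3p: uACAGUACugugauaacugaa
hsa-miR-101-5p: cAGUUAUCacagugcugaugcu
hsa-miR-101-2-5p: uCGGUUAUcaugguaccgaugc
hsa-miR-144-3p: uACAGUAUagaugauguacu
None of the other entries had the seed of miR-101-3p. miR-144-3p was the only entry that shared bases 2 to 7 with it.

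The RefSeq hairpins are shown with miR-101-3p in capitals, because the arm opposite to it is what differs between the loci.
MIR101-1: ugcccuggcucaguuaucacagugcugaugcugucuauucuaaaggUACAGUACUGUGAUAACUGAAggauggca
MIR101-2: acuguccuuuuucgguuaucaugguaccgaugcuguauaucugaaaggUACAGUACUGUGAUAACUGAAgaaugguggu
MIR101-1 lies on the minus strand at chr1:65058434-65058508 (GRCh38), with miR-101-3p at chr1:65058442-65058462, and GENCODE 29 annotates no other gene there. MIR101-2 lies on the plus strand at chr9:4850297-4850375, with miR-101-3p at chr9:4850345-4850365. It is in an intron of RCL1, a gene for an RNA cyclase-like protein of ribosome biogenesis, and an antisense entry, AL158147.1, covers nearly all of it on the other strand. Reads of miR-101-3p cannot be assigned to either hairpin. The opposite arms could tell the hairpins apart, miR-101-5p coming from MIR101-1 and miR-101-2-5p from MIR101-2.

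The sites in EZH2 are shown because they are what miR-101-3p is known for. In the 262-base 3′ untranslated region of EZH2 (GENCODE 29, transcript ENST00000478654.5), the letters GTACTGT, which pair with bases 2 to 8 of miR-101-3p, occurred 2 times on the transcript strand, first at base 59 and again at base 114. They are given in capitals with their flanks.
EZH2 site 1: ttcaggaacctcgaGTACTGTgg
EZH2 site 2: tctgaatttgcaaaGTACTGTaa
They lie on the minus strand at chr7:148807579-148807601 and chr7:148807524-148807546 (GRCh38). Of 16240 genes with at least 262 bases after the stop codon, 1.32% held GTACTGT in the first 262 of them and 0.0369% held it 2 or more times. These matches describe the letters only, and repression was not measured.

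Libraries held 1920832 to 6171851 reads assigned to miRNAs, the most in the untreated library. The share of all reads assigned to miRNAs was 43.1% in the untreated library and 13.4% to 26.5% in the siRNA-treated ones. The libraries of 36 h stood apart from each other: log2 values of siRNA 2 minus siRNA 1 had an SD of 1.22 over the 458 tested miRNAs, against 0.57 for the 24 h pair and 0.50 for the 48 h pair. siRNA 1 at 36 h also held 867 CPM of the striated muscle miRNA miR-1-3p, against 20.7 to 52.4 CPM in the other 6. The other striated muscle markers were few there, miR-133a-3p at 2.53 CPM and miR-206 at 6.58 CPM. Elsewhere they reached at most 1.31 and 0.417 CPM. Among hepatocyte markers, miR-122-5p was low (3.76 to 47.6 CPM), while miR-192-5p (1710 to 3066 CPM), miR-194-5p (68.6 to 136 CPM) and miR-148a-3p (13928 to 25536 CPM) were present in all 7 libraries. Markers of smooth muscle and fibroblasts summed to 163 to 754 CPM, highest in the 36 h libraries. Those of endothelium, nearly all from miR-126-3p, summed to 239 to 438 CPM. Of the neuron markers, miR-9-5p was at 25.2 to 44.6 CPM and miR-124-3p had 0 reads. CPM are read counts scaled to library size after TMM normalization, which sets libraries to the level shared by most miRNAs.

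miR-101-3p, the arm that guides repression, stood high in 4 libraries and low in 3. It was counted 16391 times in untreated cells, or 3057 CPM (95% interval 3010 to 3104). At 24 h it stood at 2939 CPM with siRNA 1 (2882 to 2997) and 3355 CPM with siRNA 2 (3282 to 3430), both near the untreated level. At 36 h it stood at 3491 CPM with siRNA 1 (3409 to 3574) but at 322 CPM with siRNA 2 (300 to 345), from 780 reads. At 48 h it stood at 453 CPM with siRNA 1 (426 to 482) and 372 CPM with siRNA 2 (348 to 398), both below the 24 h and untreated levels. In RNA from whole cultures, fewer cells with the miRNA and less of it per cell cannot be told apart. The means over the libraries of a time were 3147 ± 294 CPM at 24 h, 1906 ± 2241 CPM at 36 h and 413 ± 57.1 CPM at 48 h (SD, n = 2 each).

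Ordered by CPM, the highest library was that of siRNA 1 at 36 h, followed by siRNA 2 at 24 h, untreated cells and siRNA 1 at 24 h. Then came siRNA 1 at 48 h, siRNA 2 at 48 h and, lowest, siRNA 2 at 36 h. The highest 4 lay within the range 2939 to 3491 CPM, and neighbours among them differed by no more than the siRNA pair of 24 h did. The lowest 3 lay within 322 to 453 CPM, and the gap of 453 CPM to 2939 CPM separated them from the rest. By number of reads, without a length correction, miR-101-3p ranked between the 33rd and 40th of 2652 entries in the highest 4 libraries and between the 85th and 100th in the lowest 3.

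**Figure D1:**
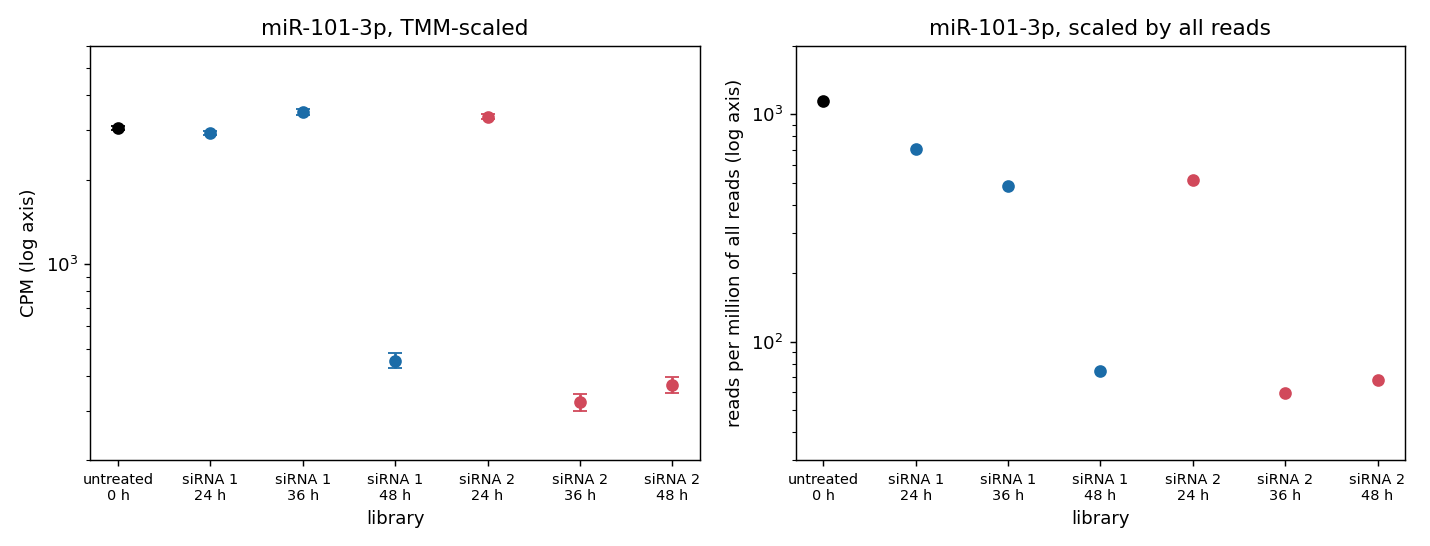
Level of miR-101-3p in each of the 7 libraries, in TMM-scaled CPM (left; bars are exact 95% intervals for counting error) and in reads scaled to the total of all reads (right), both on log axes. siRNA 2 at 36 h and both 48 h libraries sit between 322 and 453 CPM on the left, and the other 4 between 2939 and 3491 CPM.

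Each siRNA had its own course in TMM-scaled CPM. With siRNA 1, miR-101-3p was 1.19 times its 24 h level at 36 h (95% interval 1.15 to 1.22) and 0.154 times at 48 h (0.144 to 0.164). With siRNA 2 it was 0.0960 times its 24 h level at 36 h (0.0890 to 0.103) and 0.111 times at 48 h (0.103 to 0.119). The low level was thus present at 36 h with siRNA 2 and not with siRNA 1, and at 48 h with both. Between the siRNAs, siRNA 2 stood at 1.14 times siRNA 1 at 24 h (1.11 to 1.18), 0.0922 times at 36 h (0.0855 to 0.0993) and 0.822 times at 48 h (0.751 to 0.900). These intervals cover counting error alone, with 1 library on each side, and the label of each 36 h library was taken as given.

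Against untreated cells, miR-101-3p was 6.75-fold lower at 48 h with siRNA 1 (6.34 to 7.19), 8.21-fold lower with siRNA 2 (7.67 to 8.79), and 9.50-fold lower at 36 h with siRNA 2 (8.84 to 10.2). In the fit across all miRNAs, the log2 fold change of 48 h against 24 h was -2.93 ± 0.94 (SE). This is the contrast for which miR-101-3p was picked, so no test is given for it. It was the 9th lowest of 458 log2 fold changes. In that comparison edgeR called 0 of 458 miRNAs (0%) at an adjusted p under 0.05, and 84 (18.3%) were under 0.05 before adjustment. For limma-voom these numbers were 0 and 83 (18.1%), and DESeq2 called 21 of the 387 it tested (5.43%). Without both 36 h libraries, the widest pair, edgeR called 128 (27.9%), and the log2 fold change of miR-101-3p was -2.97 ± 0.21. It was -2.91 without siRNA 1 at 36 h and -2.93 without siRNA 2 at 36 h.

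The comparison of 24 h with untreated cells was not the ground of the choice, although both served as the high level in it. Thus this comparison was not fully independent of the choice. It gave a log2 fold change of 0.04 ± 1.07 (SE) for miR-101-3p (adjusted p = 0.997 by edgeR's quasi-likelihood test over 458 miRNAs, with 1 of 2 libraries above untreated). Its 95% interval ran from -2.50 to 2.58, so the fit left a wide range for this value. In this comparison edgeR called 0 of 458 (0%), and 11 (2.4%) were under 0.05 before adjustment. For limma-voom these numbers were 0 and 9 (1.97%), and DESeq2 called 1 (0.218%). Scaled by all reads, where the median over all miRNAs was -0.97, the log2 fold change was -0.91 ± 0.72 (adjusted p = 0.365). On that scale miR-101-3p stood at 1146 CPM of all reads in untreated cells, 706 and 514 at 24 h, 482 and 59.4 at 36 h, and 74.4 and 67.5 at 48 h with siRNA 1 and siRNA 2. The same 3 libraries were low on this scale, while the untreated library stood above all others.

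The share of reads that were miRNAs was 15.2% to 15.9% in the 3 libraries where miR-101-3p was low. It was higher in untreated cells and in both 24 h libraries, where miR-101-3p was high. The share was lowest, 13.4%, with siRNA 1 at 36 h, where miR-101-3p was highest in CPM. Scaled by all reads, miR-101-3p in that library stood below untreated cells and both 24 h libraries. The part of the miRNA share in the result was not tested. Markers of erythroid cells (miR-451a, miR-144-3p and miR-486-5p, 3 of 3 with a read) summed to 11.9 CPM in untreated cells, 13.3 and 13.8 CPM at 24 h, 22.3 and 76.4 CPM at 36 h, and 42.4 and 35.1 CPM at 48 h with siRNA 1 and siRNA 2. This sum, nearly all from miR-451a, was thus highest where miR-101-3p was low. miR-486-5p was at 2.06 and 2.09 CPM with siRNA 2 at 36 and 48 h, but at 0 CPM with siRNA 1 at 48 h. The part of these markers in the result was not tested. Markers of smooth muscle and fibroblasts (3 of 3 with a read, nearly all from miR-143-3p) summed to 201 CPM after 24 h and 462 CPM after 48 h with siRNA 1, and to 168 and 396 CPM with siRNA 2. The log2 fold change of miR-143-3p was 1.21 ± 0.26 (SE, adjusted p = 0.244 by edgeR and 0.0172 by DESeq2). These markers were also high with siRNA 1 at 36 h, where miR-101-3p was high, and their part in the result was not tested either. Of the other blood cell markers, miR-223-3p had 0 reads in all libraries, and the 4 of that list summed to 2.09 to 4.37 CPM.

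miR-101-5p, the passenger arm of MIR101-1, was next to absent. It had 1 read in untreated cells, 1 read with siRNA 1 at 24 h and 0 reads in the other 5 libraries, and it did not reach the mean count of 10 needed for a test. A count of 0 allows up to 1.52 to 1.87 CPM in those 5 libraries. The passenger arm of the other hairpin, miR-101-2-5p, had 4 reads in all: 1 in untreated cells, 2 with siRNA 1 at 36 h and 1 with siRNA 2 at 24 h. All 6 passenger reads came from libraries with high miR-101-3p, where each passenger arm was thus seen. They were too few to estimate the contribution of MIR101-1 and of MIR101-2 in any library.

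Summed over the libraries, miR-101-5p made up 2 of 43956 reads of the pair miR-101-3p and miR-101-5p, 0.00455% (95% interval 0.000551 to 0.0164). The arms are 21 and 22 bases long, so length hardly bears on this ratio. In the libraries with few miR-101-3p reads the share was bounded loosely: 0 of 780 reads with siRNA 2 at 36 h allows up to 0.472%. Among 134 pairs of arms with at least 1000 reads together, the median share of the minor arm was 1.17%, and 26 pairs were under 0.1%. In 6 pairs the minor arm had 0 reads, and the miR-101-5p share was the next lowest. miR-101-3p reads come from both hairpins, however, and with miR-101-2-5p added the passenger share was 6 of 43960 reads, 0.0136% (95% interval 0.00501 to 0.0297). By that share 3 other pairs with a read of the minor arm, miR-192, miR-100 and let-7i, lay below miR-101. Whether the passenger arm moved with miR-101-3p could not be read from these counts.

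**Figure D2:**
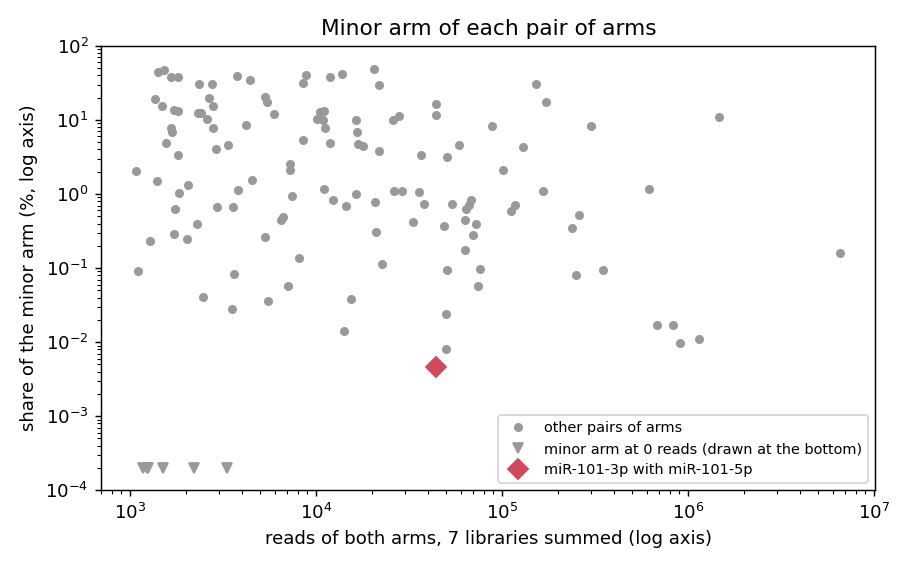
Share of the minor arm against the reads of both arms for 134 pairs of mature arms, 7 libraries summed, on log axes; triangles at the bottom stand for 6 pairs whose minor arm had 0 reads. miR-101 (red) is drawn at 0.00455%, with miR-101-5p alone as the minor arm; with the reads of miR-101-2-5p added it would lie at 0.0136%, above 3 of the other pairs with a read.

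The miRNAs with the most similar course were found by the root mean square difference between profiles of log2 CPM, each centred on its own mean over the 7 libraries. Of 275 other miRNAs whose mean count reached 50, the 5 nearest were miR-340-5p (0.205), miR-32-5p (0.242), miR-374a-3p (0.265), miR-542-3p (0.279) and miR-19b-3p (0.339). The median distance was 1.54. They are listed with the seed in capitals to show that none shares the seed of miR-101-3p.
hsa-miR-340-5p: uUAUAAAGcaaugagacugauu
hsa-miR-32-5p: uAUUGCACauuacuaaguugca
hsa-miR-374a-3p: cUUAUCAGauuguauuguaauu
hsa-miR-542-3p: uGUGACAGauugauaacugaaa
hsa-miR-19b-3p: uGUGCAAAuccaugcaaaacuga
Their places in the genome are given where a RefSeq entry was found, which leaves out miR-542-3p. miR-340-5p maps to chr5:180015361-180015382, miR-32-5p to chr9:109046272-109046293, miR-374a-3p to chrX:74287295-74287316 and miR-19b-3p, a member of the growth-promoting miR-17-92 cluster, to chr13:91351245-91351267 and to another hairpin (GRCh38.p14).

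Their levels stood high and low in the same libraries as miR-101-3p. miR-340-5p was at 1162 CPM in untreated cells, 1111, 965 and 142 CPM at 24, 36 and 48 h with siRNA 1, and 858, 110 and 109 CPM with siRNA 2. miR-374a-3p was at 1002 CPM in untreated cells, 1234, 1066 and 149 CPM with siRNA 1, and 1220, 72.2 and 102 CPM with siRNA 2. miR-542-3p was at 129 CPM in untreated cells, 125, 118 and 10.5 CPM with siRNA 1, and 136, 10.7 and 10.02 CPM with siRNA 2. In each of these, both 48 h libraries and siRNA 2 at 36 h were the lowest 3. The log2 fold changes of 48 h against 24 h were -3.66 ± 0.99 (SE) for miR-542-3p, -3.29 ± 1.06 for miR-374a-3p, -2.98 ± 0.89 for miR-340-5p, -2.41 ± 0.75 for miR-19b-3p and -2.36 ± 0.92 for miR-32-5p. Since these miRNAs were chosen for their likeness to miR-101-3p, these values are descriptions too.

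**Figure D3:**
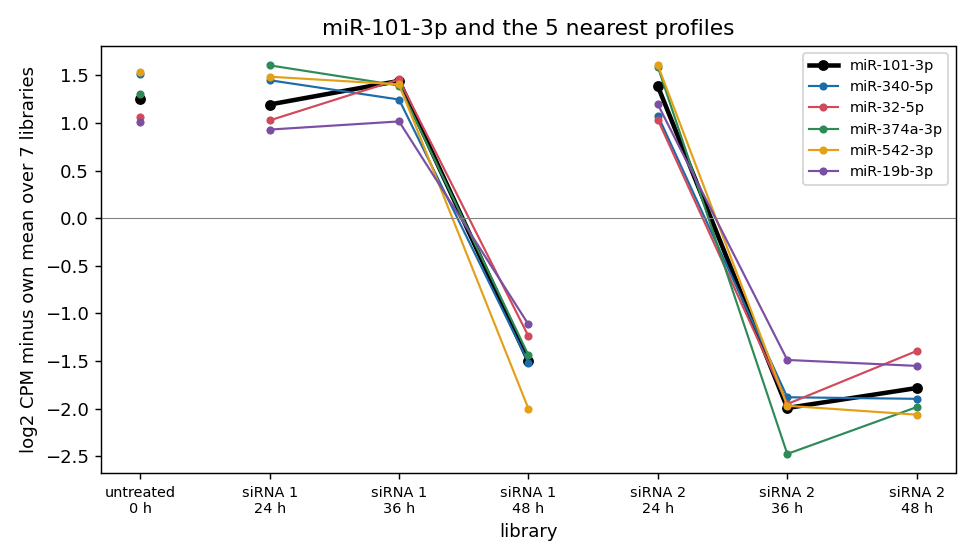
Level of miR-101-3p (black) and of the 5 miRNAs nearest to it in each library, as log2 CPM minus the miRNA's own mean over the 7 libraries; lines join the times of 1 siRNA. All 6 lie above 0 in untreated cells, at 24 h and with siRNA 1 at 36 h, and below 0 in the other 3 libraries.

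miR-542-3p, a miRNA of the X-linked miR-424 and miR-503 cluster, resembled miR-101-3p in sequence as well. The longest run of bases the pair shared is in capitals.
hsa-miR-101-3p: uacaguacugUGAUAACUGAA
hsa-miR-542-3p: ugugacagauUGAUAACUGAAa
This run of 11 bases lies at the 3′ end of miR-101-3p, outside the seed, and was the longest that any of the other 457 tested miRNAs shared with it. The next longest, 9 bases, was in miR-1278, which did not share the course. With siRNA 1 and siRNA 2 it was at 34.9 and 35.1 CPM after 24 h against 35.4 and 25.0 CPM after 48 h. Its log2 fold change was -0.21 ± 0.49 (SE). The longest shared runs were 6 bases for miR-19b-3p, 5 for miR-340-5p, 4 for miR-32-5p and 3 for miR-374a-3p.

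A shared seed did not go with a shared course for miR-32-5p. Its seed, AUUGCAC, was shared by 3 other tested miRNAs, miR-25-3p, miR-92a-3p and miR-92b-3p. With siRNA 1 and siRNA 2, miR-32-5p was at 278 and 280 CPM after 24 h against 57.2 and 51.3 CPM after 48 h. miR-92a-3p was at 16429 and 11906 CPM after 24 h against 18187 and 19662 CPM after 48 h. The log2 fold changes of 48 h against 24 h were 0.42 ± 0.29 (SE) for miR-92a-3p, 0.40 ± 0.27 for miR-92b-3p and 0.18 ± 0.25 for miR-25-3p. Those of miR-19a-3p and miR-19b-3p, which share the seed GUGCAAA, were -2.36 ± 0.64 and -2.41 ± 0.75.

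miR-101-3p and its nearest miRNAs had low GC content. That of miR-101-3p was 33.3%, and 4 of the 5 nearest were at or below it (22.7% to 39.1% for the 5), where the median of tested miRNAs was 50%. Among the 31 other tested miRNAs at or below 33.3% GC, 24 had a log2 fold change of 48 h against 24 h below 0 (median -0.93), beside 220 of all 458 (48%, median 0.03). edgeR called 0 of the 31 (0% of all 458). DESeq2 called 4 of the 31 lower and 0 higher, beside 3.88% lower and 1.55% higher of all it tested. Without both 36 h libraries edgeR called 17 lower and 2 higher, beside 17.7% lower and 10.3% higher of all. miR-101-3p had the 4th lowest log2 fold change of these 32 miRNAs.

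The relation to GC content ran over the whole range. The median log2 fold change of 48 h against 24 h was -0.53 for 46 miRNAs above 33.3% and up to 40% GC, -0.02 for 176 above 40% to 50%, 0.21 for 109 above 50% to 60% and 0.33 for 95 above 60%. Across the 458 miRNAs, which share libraries and are not independent replicates, Pearson's r was 0.37 and Spearman's rho 0.37, given as a description. For 24 h against untreated, r was 0.05. The 31 other miRNAs of low GC summed to 208807 CPM in untreated cells, 195662, 136152 and 102994 CPM at 24, 36 and 48 h with siRNA 1, and 167378, 91582 and 85854 CPM with siRNA 2. let-7f-5p and miR-7-5p, named for their abundance after the values were seen, made up 88.9% to 94.6% of this sum. The other 29 summed to 11301 CPM in untreated cells, 13194, 15053 and 6849 CPM with siRNA 1, and 11187, 5752 and 7367 CPM with siRNA 2. The 3 libraries with low miR-101-3p had the lowest sums with and without that pair. After a linear trend with GC content was removed from each library, the log2 fold change of miR-101-3p was -2.42 ± 0.72 (SE), against -2.93 ± 0.94 before.

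**Figure D4:**
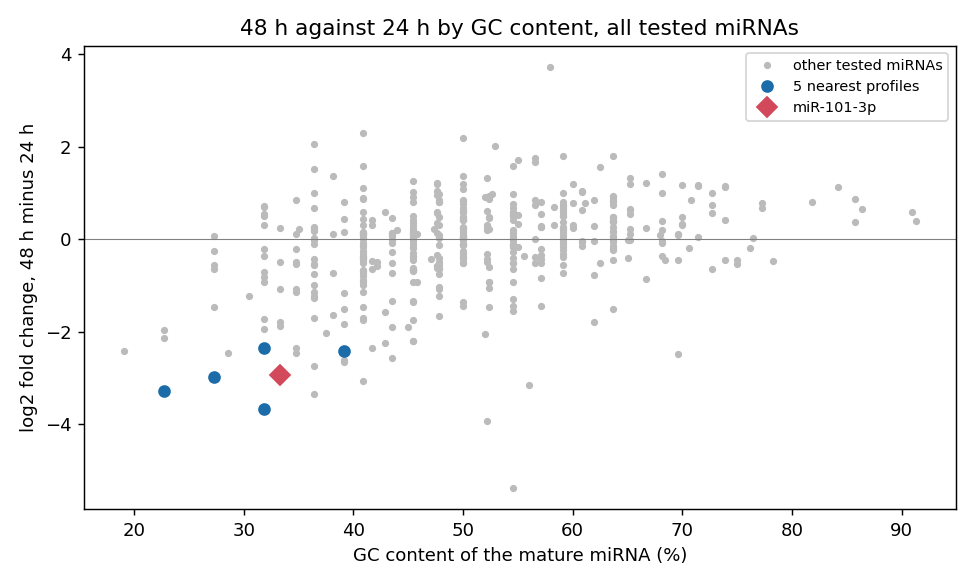
Log2 fold change of 48 h against 24 h (TMM scale) against the GC content of the mature miRNA for 458 tested miRNAs. miR-101-3p (red, 33.3% GC, -2.93) and the 5 nearest profiles (blue) lie at the lower left, and the median is -1.0 at or below 33.3% GC and 0.33 above 60%.

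miR-101-3p was compared with other miRNAs that published work names as repressors of EZH2. Of 14 such miRNAs 9 passed the count filter, and 3 of the 9 had a log2 fold change of 48 h against 24 h below 0 (median 0.13, against 0.03 over all). edgeR called 0 of the 9, beside 0% of all tested, and DESeq2 called 0, beside 5.43%. Without both 36 h libraries edgeR called 2 of the 9 lower, miR-98-5p and miR-26b-5p, and 0 higher, beside 17.7% lower and 10.3% higher of all, so the counts for this list were near the background. The 14 together had 69745 CPM in untreated cells, 78640 and 66298 CPM at 24 h, 72332 and 71630 CPM at 36 h, and 72941 and 80663 CPM at 48 h with siRNA 1 and siRNA 2. Their sum was thus not lower in the libraries with low miR-101-3p. The largest part came from let-7a-5p, with 29583 CPM in untreated cells, so the sum says little about the smaller members.

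Within this list, miR-26a-5p, which represses EZH2 and cyclins and is much reduced in liver cancer, had 7242 CPM in untreated cells, 8024, 9112 and 7808 CPM at 24, 36 and 48 h with siRNA 1, and 7143, 7201 and 8770 CPM with siRNA 2. Its log2 fold change of 48 h against 24 h was 0.13 ± 0.23 (SE, adjusted p = 0.789 by edgeR). miR-26b-5p, its paralogue with 33.3% GC, had 3260 CPM in untreated cells, 4632, 6254 and 2802 CPM with siRNA 1, and 3852, 2160 and 3251 CPM with siRNA 2. Its log2 fold change was -0.49 ± 0.47 (adjusted p = 0.584). miR-98-5p, a let-7 relative with 31.8% GC, was at 3398 and 2696 CPM after 24 h against 1753 and 1956 CPM after 48 h (-0.72 ± 0.31, adjusted p = 0.276). let-7a-5p and let-7b-5p, guide arms of the let-7 family, were at -0.02 ± 0.21 and 0.35 ± 0.27. miR-144-3p, the nearest relative of miR-101-3p by seed, had 0 reads in the 4 libraries with high miR-101-3p, 1 with siRNA 1 at 48 h, 3 with siRNA 2 at 36 h and 2 with siRNA 2 at 48 h. These are at or under the 3 reads that a count of 0 allows. miR-124-3p had 0 reads in all 7 libraries.

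**Figure D5:**
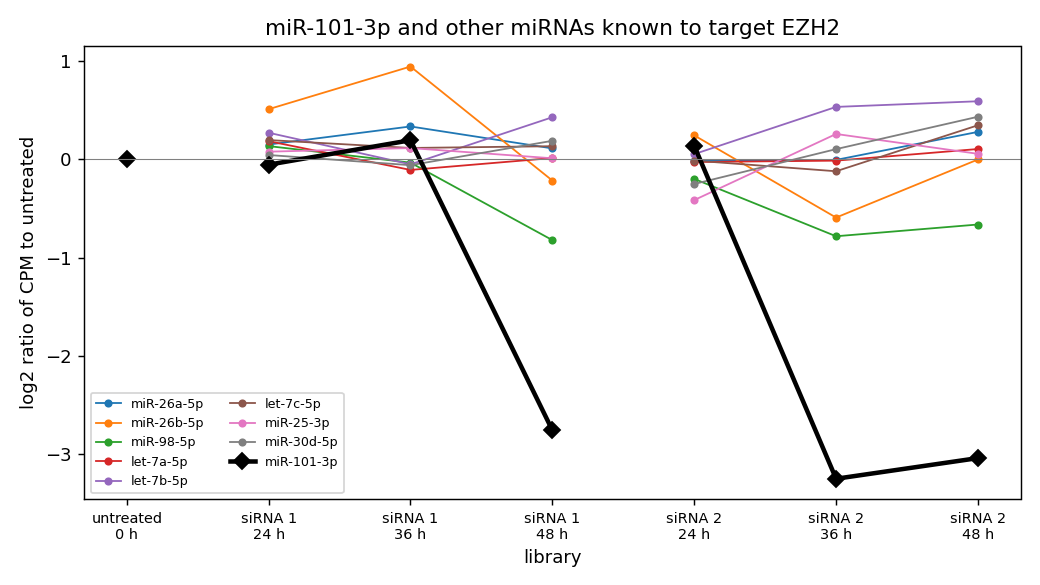
Log2 ratio of CPM to untreated cells for miR-101-3p (black) and 8 other tested miRNAs known to target EZH2 in each library; lines join the times of 1 siRNA, and miR-217-5p, with few reads, is not drawn. The 8 lie between -0.82 (miR-98-5p) and 0.94 (miR-26b-5p), while miR-101-3p lies near -3 in 3 libraries.

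A list of 23 miRNAs that are often reduced in hepatocellular carcinoma, as miR-101-3p is, had 16 tested members. Of these 7 had a log2 fold change of 48 h against 24 h below 0 (median 0.10, against 0.03 over all). edgeR called 0 of the 16, beside 0% of all tested. DESeq2 called 1 lower, beside 3.88% of all. This was miR-29b-3p, a repressor of collagens and DNA methyltransferases, with a log2 fold change of -2.46 ± 0.93 (SE) by edgeR (adjusted p = 0.250 by edgeR and 0.0318 by DESeq2). Its levels were 387 CPM in untreated cells, 409, 571 and 159 CPM at 24, 36 and 48 h with siRNA 1, and 1277, 76.4 and 148 CPM with siRNA 2, with the same 3 libraries lowest as for miR-101-3p. Its family member miR-29a-3p was at 0.12 ± 0.23 (SE). Without both 36 h libraries edgeR called 4 of the 16 lower (miR-122-5p, miR-29b-3p, miR-29c-3p and let-7g-5p) and 2 higher (miR-99a-5p and miR-139-5p), beside 17.7% lower and 10.3% higher of all, which is near the background too.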

How the data were processed

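Small RNA libraries were made from total RNA with an NEBNext kit, per the labels' protocols. For each of 7 libraries the authors deposited 1 file of unnormalized counts for 2652 mature miRNAs. Aligner, counter, miRNA release and build: not given in the sources used here. The 5 summary lines of each file entered neither library sizes nor tests, and reads of no feature made up 56.9% to 86.6% of all reads. The line for reads with several alignments is 0 in each file, although miR-101-3p has a pair of loci, so how such reads were placed is unknown.

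Counts of the 458 miRNAs whose mean count reached 10 were fitted in edgeR 4.0.16 (R 4.3.3, TMM, quasi-likelihood test), with untreated, 24, 36 and 48 h as groups and Benjamini-Hochberg adjustment over all 458 at 0.05. The single library of untreated cells was taken to vary as the siRNA pairs do. Since no label names separate cultures, p-values reflect the spread among these libraries alone, possibly a technical one. SE is the log2 fold change divided by the root of F. Log2 CPM used a prior count of 2. Intervals of CPM and shares are exact Clopper-Pearson, those of ratios come from the exact binomial of both counts, all at 95%, and with no molecular identifiers they cover counting error only. For miR-144-3p, a count of 0 was taken to allow up to 3 reads.

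The members, lists and tests were chosen with earlier results of these data known. Named miRNAs were the arms, miR-101-2-5p, entries of the same or nearest seed, the 5 nearest profiles and list members; miR-1278, miR-143-3p, the pairs of arms named and the seed relatives of the nearest profiles were added after their values were seen. Alternatives were DESeq2 1.42.0, limma-voom (limma 3.58.1), other scales, filters, left-out libraries, the siRNA number as a block and removal of a GC trend. Scripts were tested on simulated counts. Sequences and coordinates are from RefSeq (GRCh38.p14) and GENCODE 29; of the 9 mature miRNAs printed, 8 matched a RefSeq entry.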

Additional observations from a re-analysis of the deposited data

Results flagged for a closer look

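From 24 h to 36 h, miR-101-3p moved in opposite directions with the siRNAs: its log2 CPM was 0.25 higher with siRNA 1 and lower with siRNA 2, at -3.38. With 1 library for each siRNA and time, this difference was not tested.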

How the results depend on the processing

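The log2 fold change of miR-101-3p for 48 h against 24 h (-2.93) was below 0 under all 17 alternatives. Since miR-101-3p was picked for this fall and the alternatives reuse the same libraries, the shared sign is a description only. The SD within the 24 h and 48 h pairs was 0.17, and the 36 h pair, with a log2 difference of -3.44, was left out of it. The fold change moved by more than this SD with total miRNA counts (-2.59) and all reads (-3.10). It also did so with the GC trend removed, alone (-2.42) or with the replicate block (-2.50). Leaving out 1 library gave -3.08 to -2.80. For 24 h against untreated (0.04) the sign changed with all reads as the scale (-0.91) and without a count filter (-0.023) and without siRNA 2 at 24 h (-0.057), and leaving out 1 library gave -0.057 to 0.13. That contrast passed the test under none of the 17 alternatives (adjusted p 0.365 to 1).

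Calls for 48 h against 24 h (0) became 21 with DESeq2, 29 with all reads, 51 without a count filter, 128 without both 36 h libraries, 1 with the GC trend removed, 17 with the replicate block and the GC trend removed, and 0 to 127 when 1 library was left out, 127 without siRNA 1 at 36 h and also without siRNA 2 at 36 h. Their split was 6 higher and 15 lower with DESeq2, 1 and 28 with all reads, and 47 and 81 without both 36 h libraries. Total counts moved the median of all miRNAs to 0.37. Calls for 24 h against untreated (0) became 1 with DESeq2, 2 with all reads, 2 without a count filter, 5 without both 36 h libraries and 0 to 8 when 1 library was left out, 8 without either 36 h library. The cause was not tested.

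With the siRNA number as a replicate block alone, calls were 0 in both comparisons and the values of miR-101-3p were -3.02 and 0.17. The siRNA differences correlated at 0.10 between 24 and 36 h, -0.25 between 24 and 48 h and -0.16 between 36 and 48 h. With 1 library for each siRNA and time, these correlations cannot show whether libraries of the same siRNA share an effect. The 5 nearest miRNAs were the same 5 with total counts and with a prior count of 0.5. The highest share of miR-101-5p in a library, 0.0101%, became 0.00610% without siRNA 1 at 24 h. Planned fits of miR-101-5p were not run, since it failed the count filter.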
